A study of Mus musculus with 16 samples.

Results

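The integrated stress response genes described here are Atf4, Atf3, Ddit3, Trib3, Chac1, Asns, Psat1, Phgdh, Sesn2 and Ddit4, chosen by gene symbol from the deposited count tables of mouse small intestine lacking Cul4b. They are 10 of the 52525 genes that all 3 tables list, and every one was measured in all 16 RNA-seq libraries. Cul4b encodes the scaffold of the CRL4B ubiquitin ligase, and the study asked what its loss does to the intestinal epithelium. In 2 experiments, crypts or organoids of pVillin-Cre; Cul4b fn/Y mice (KO-IEC, deleted in the intestinal epithelium) were compared with crypts or organoids of Cul4b fn/Y controls (WT). In the third experiment, CAG-CreERT2; Cul4b fn/Y organoids (KO-CAG, deleted in all cells on tamoxifen) were compared with WT organoids. All mice were of C57BL/6 background, and most experiments of the study used animals of 8 to 16 weeks. The control alleles, Cre and tamoxifen treatment of the WT organoids in the KO-CAG experiment were not given in the sources used here.

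Each genotype of the crypt experiment had 4 libraries, and each genotype of either organoid experiment had 2. Crypts were released with EDTA on ice after the villi had been scraped away, and organoids were grown from such crypts in Matrigel. The methods call the libraries biological replicates, but neither they nor the labels tie a library to an animal or culture, so p-values measure the spread between these libraries. Total counts ran from 7348191 to 16881395 per library. At that depth 3 counts, taken as the floor, corresponded to 0.173 to 0.417 CPM (counts scaled to library size with TMM factors), which covers counting error only. Cul4b itself fell from a mean of 33.9 to 1.43 CPM in the crypts, from 78.2 to 1.72 CPM on deletion by pVillin-Cre in organoids and from 71.5 to 4.26 CPM on deletion by CAG-CreERT2, and WT and KO libraries did not overlap in any experiment. The 4 epithelial markers (Epcam, Cdh1, Vil1, Krt8) summed to 4594 to 9003 CPM per library. The 3 endothelial markers summed to at most 1.77 CPM and the 5 mesenchymal markers to at most 4.40 CPM. The 8 immune markers summed to 1.39 to 4.10 CPM in the organoids, and to 32.5 to 289 CPM in the crypts.

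In the integrated stress response, kinases that sense amino acid shortage, unfolded protein in the endoplasmic reticulum (ER), double-stranded RNA or lack of heme phosphorylate the initiation factor eIF2. Phosphorylated eIF2 blocks its exchange factor eIF2B and lowers most protein synthesis, while translation of the Atf4 mRNA rises through upstream open reading frames in its leader. ATF4 then pairs with other basic leucine zipper (bZIP) factors on C/EBP-ATF response elements and raises genes for amino acid synthesis and uptake, tRNA charging and cell death. The activity of ATF4 is therefore set largely by translation, which RNA counts do not show.

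A core of the C/EBP-ATF response element, TGATGNAA, was searched on both strands of the RefSeq promoters (GRCm38.p6, 250 bases before the start and 50 bases from it). All 10 genes had a promoter there, and 4 of the 10 held a match. Over all promoters of the same length, 1304 of 32851 (3.97%) held one, and counted by gene it was 4.51% of 27025. The stretches with a match before the start of Atf3, Chac1 and Asns are shown. So are the 30 bases around the match just after the start of Trib3. These stretches carry the letters that the windows of the other members lack. The 250 bases before the start of Sesn2 are shown because Sesn2 changed most clearly and its window held no match. Each is written 5′ to 3′ on the strand of the gene, and capitals mark the match.
Atf3, chr1:191183380-191183499, minus strand: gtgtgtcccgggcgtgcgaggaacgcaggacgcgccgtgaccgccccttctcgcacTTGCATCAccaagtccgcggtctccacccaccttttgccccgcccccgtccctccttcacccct
Chac1, chr2:119350993-119351112, plus strand: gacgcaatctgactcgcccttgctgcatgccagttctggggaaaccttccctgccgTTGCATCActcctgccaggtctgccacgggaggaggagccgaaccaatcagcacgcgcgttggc
Asns, chr6:7693210-7693329, minus strand: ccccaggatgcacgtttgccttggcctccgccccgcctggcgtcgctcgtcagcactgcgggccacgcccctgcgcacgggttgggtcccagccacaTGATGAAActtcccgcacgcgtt
Trib3, chr2:152344028-152344057, minus strand: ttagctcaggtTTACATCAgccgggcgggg
Sesn2, chr4:132510457-132510706, minus strand: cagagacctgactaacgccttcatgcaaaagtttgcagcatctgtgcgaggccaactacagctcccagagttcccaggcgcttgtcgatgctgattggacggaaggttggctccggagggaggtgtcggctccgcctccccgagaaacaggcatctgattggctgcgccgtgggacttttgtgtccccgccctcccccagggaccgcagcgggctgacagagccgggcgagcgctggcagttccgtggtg

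The match began 110 bases before the RefSeq start in Atf3, 193 bases before it in Chac1 and 23 bases before it in Asns, and at base 15 from the start in Trib3. Atf3 and Chac1 held the same 8 letters, TTGCATCA, which read TGATGCAA on the other strand. The match is a description of these letters, and its absence from the windows of Atf4, Ddit3, Psat1, Phgdh, Sesn2 and Ddit4 says only that they are not within this window.

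The 10 genes were compared between KO and WT inside each experiment. A gene was called where edgeR's quasi-likelihood p, after Benjamini-Hochberg correction across every tested gene of that experiment, was under 0.05, and that value is written edgeR adjusted p. In KO-CAG organoids, 5 of the 10 were called. Sesn2, Atf3, Chac1 and Ddit3 were higher and Ddit4 was lower. In that experiment 31.5% of all 13598 tested genes were called, 18.1% as higher and 13.4% as lower. Libraries of the genotypes did not overlap for 7 of the 10, where this held for 69.7% of all tested genes. In KO-IEC crypts none of the 10 was called, against 6.96% of 13427 tested genes (4.3% higher and 2.66% lower, and 1.79% with a fold of at least 2). Groups did not overlap for 2 of the 10, the enzymes Asns and Phgdh, and for 17.5% of all tested genes. In KO-IEC organoids none was called either. There only 1 of 13938 tested genes (0.00717%), Cul4b itself, was called by edgeR, with 650 genes at an unadjusted p under 0.05 and 26 called by DESeq2. Groups overlapped for all 10 genes, where 38.9% of all tested genes did not overlap. DESeq2 called 1 of the 10 genes in the crypts, Asns, and none in the KO-IEC organoids. The unadjusted edgeR p was under 0.05 for 4 of the 10 in crypts (Asns, Phgdh, Atf3 and Trib3) against 31.9% of all tested genes, for 0 of the 10 in KO-IEC organoids against 4.66%, and for 7 of the 10 in KO-CAG organoids against 43%. The median log2 fold change of the 10 was -0.11 in the crypts, -0.25 in the KO-IEC organoids and 0.38 in the KO-CAG organoids, where the medians of all tested genes were -0.01, -0.01 and 0.00. Fitted values were below 0 for 7 of the 10 in crypts (51.1% of all tested genes), for 8 in KO-IEC organoids (51.2%) and for 3 after CAG-CreERT2 deletion (49.9%).

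**Figure D1:**
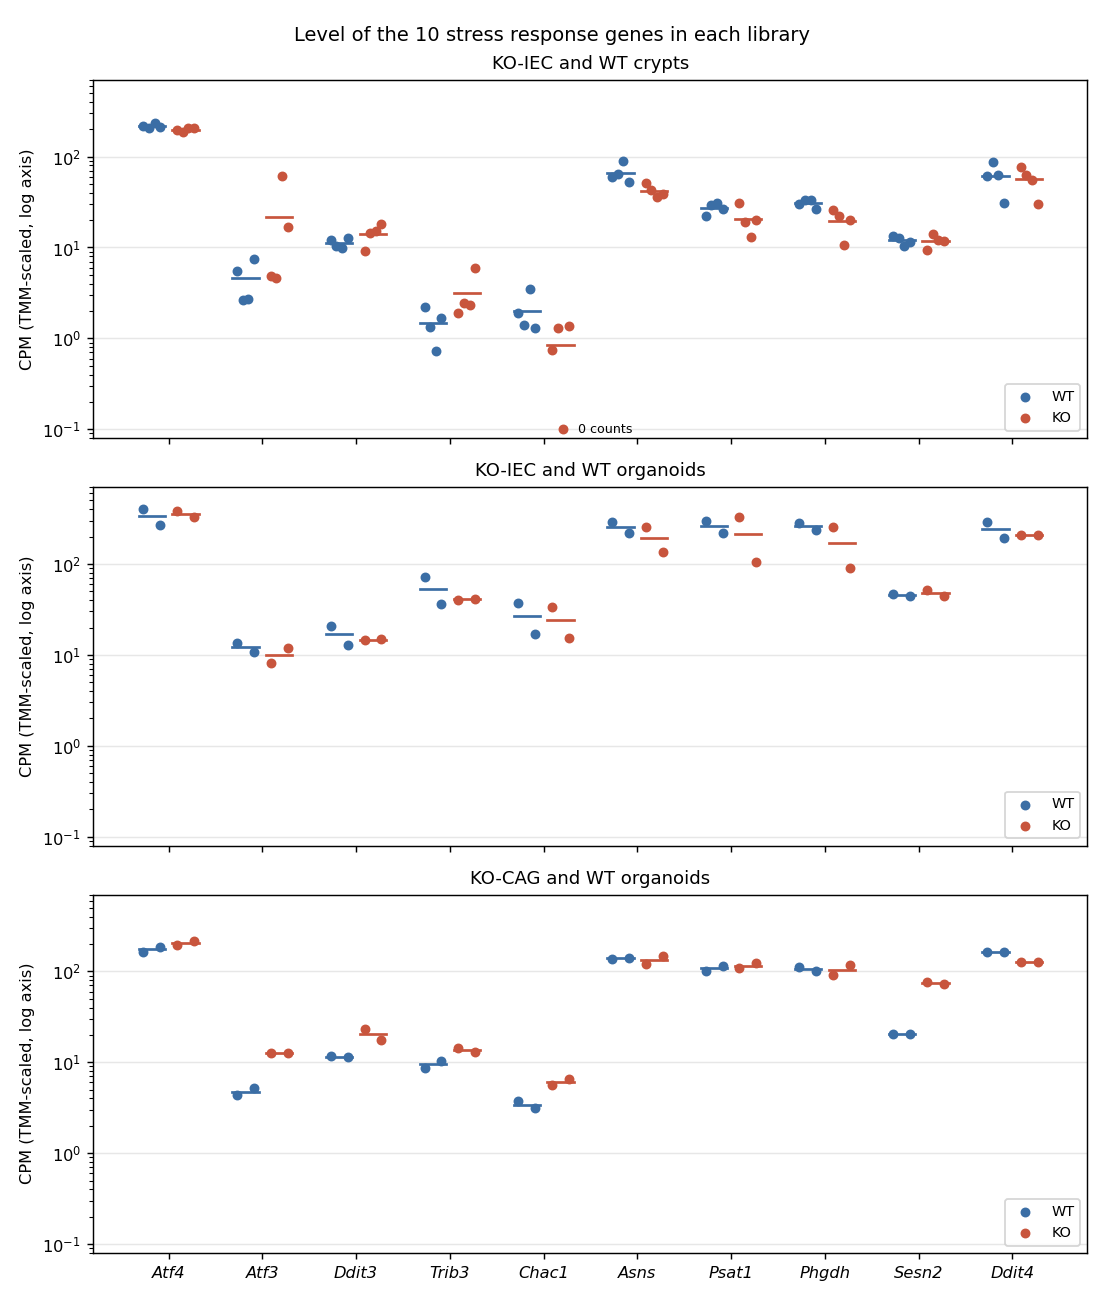
Level of each of the 10 genes in every library (y axis, CPM scaled by TMM factors, log axis), with WT libraries in blue, KO libraries in orange and bars at the group means. Sesn2, Atf3, Atf4, Ddit3, Trib3, Chac1 and Ddit4 separate in the KO-CAG organoids, where 69.7% of all tested genes do. Asns and Phgdh are lower in every KO-IEC crypt library than in any WT crypt library. For Atf3, 1 KO-IEC crypt library stands far above the others. The Chac1 point marked 0 counts is drawn at the lower edge.

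Among the WT libraries of each experiment, Atf4 had the highest mean level per length (RPKM, which is CPM divided by the deposited gene length in kilobases). It was 125 RPKM in crypts, 142 RPKM in the WT organoids of the KO-IEC experiment and 102 RPKM in those of the KO-CAG experiment. Ddit4 came next in each, at 34.5, 139 and 93.3 RPKM, and in both organoid experiments it did not differ from Atf4 beyond their SD. The enzymes Asns, Phgdh and Psat1 lay between 25.3 and 104 RPKM in WT organoids, and between 6.40 and 24.3 RPKM in WT crypts. At the low end of the order were Trib3, Chac1, Atf3 and Sesn2 in crypts, at 0.702, 1.24, 2.13 and 3.46 RPKM, of which neighbours did not differ beyond their SD. Sesn2 (5.85 RPKM) and Ddit3 (6.74 RPKM) were apart from their neighbours in the WT organoids of the KO-CAG experiment, where the SDs were small. Values of different experiments stand side by side here but are not a comparison of levels, since the 3 were prepared separately. The Atf4 value of the KO-IEC organoid experiment also rests on another gene model and length.

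Among the transcription factors, Atf4 (ENSMUSG00000042406, chr15:80255184-80257540, plus strand, GRCm38 as for all positions given), the bZIP factor through which the response acts, hardly moved as mRNA. Its level was 215, 205, 234 and 211 CPM in WT crypts and 196, 186, 204 and 207 CPM in KO-IEC crypts. The groups overlapped, with a log2 fold change of -0.13 (SE 0.0891, edgeR adjusted p = 0.352). In the KO-IEC organoid experiment WT gave 400 and 271 CPM and KO gave 382 and 327 CPM, so that the WT libraries enclosed the KO libraries. In the KO-CAG experiment WT gave 164 and 186 CPM and KO gave 196 and 217 CPM, which did not overlap, and the log2 fold change of 0.24 (95% interval 0.03 to 0.45) missed the threshold (edgeR adjusted p = 0.0824). The position and the length of 1724 bases are those of the crypt and KO-CAG tables, and the KO-IEC organoid table used another model of Atf4.

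Atf3 (ENSMUSG00000026628, chr1:191170296-191218039, minus strand) encodes a bZIP factor that many stresses induce and that can repress transcription. It was among the genes that changed in KO-CAG organoids, from 4.34 and 5.18 CPM in WT to 12.7 CPM in both KO libraries. Both KO libraries lay above both WT libraries, 2.66-fold in the fit (95% interval 1.92 to 3.70, log2 fold change 1.41, edgeR adjusted p = 8.56e-04). The WT level behind that fold came from 36 and 40 counts. The crypts gave a different picture. WT crypts had 5.55, 2.64, 2.72 and 7.48 CPM of Atf3, and KO-IEC crypts had 4.86, 4.58, 61.3 and 16.6 CPM. KO replicates 1 and 2 lay inside the WT range, replicate 4 above it and replicate 3 far above all others, so that the log2 fold change of 2.23 (SE 0.818) was not called (edgeR adjusted p = 0.102, exact two-sided permutation p = 0.171). Without KO replicate 3 the log2 fold change was 0.93 (edgeR adjusted p = 0.331). In KO-IEC organoids Atf3 was 13.5 and 10.8 CPM in WT and 8.19 and 11.9 CPM in KO, with overlap.

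KO-IEC crypt replicate 3 stood apart in more than Atf3. Its summed level of 16 immediate early genes, the quick transcripts of stimulated cells, was 3532 CPM, against 684 to 1468 CPM in the other 7 crypt libraries, and its Fosb level was 413 CPM against 4.14 to 34.7 CPM. Its immune marker sum was 289 CPM, against 32.5 to 154 CPM in the others, and all 8 immune markers had counts in the crypts. It also had the lowest sum of the 4 Paneth cell markers, 1593 CPM, against 5890 to 14359 CPM. The part of these differences in the Atf3 value was not tested. In KO-CAG organoids, where Atf3 was called, 12 of 15 tested immediate early genes were called higher, beside 18.1% of all tested genes. Their relation to the Atf3 value there was not tested either.

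Ddit3 (ENSMUSG00000025408, chr10:127290774-127296288, plus strand) encodes CHOP, a bZIP factor tied to cell death in lasting ER stress. In KO-CAG organoids it was 23.4 and 17.4 CPM, against 11.7 and 11.4 CPM in WT. The KO libraries lay above the WT libraries and differed from each other more than the WT libraries did, with a fold of 1.75 (95% interval 1.31 to 2.32, edgeR adjusted p = 0.00839). In the crypts, WT gave 12, 10.46, 9.83 and 12.6 CPM and KO gave 9.20, 14.4, 15.2 and 18.2 CPM. KO replicate 1 was the lowest of the 8 libraries and the other 3 KO libraries the highest, so the groups overlapped (log2 fold change 0.34, edgeR adjusted p = 0.268). In KO-IEC organoids Ddit3 was 14.5 and 14.9 CPM, inside the WT values of 20.8 and 12.9 CPM. Exons of Ddit3 overlap those of Mars and Gm4189 on the opposite strand, and whether strand was used in counting is not given in the sources used here, so its counts are uncertain to that extent. Mars itself was 79.0 and 85.8 CPM in WT and 83.0 and 92.8 CPM in KO-CAG organoids and was not called.

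Trib3 (ENSMUSG00000032715, chr2:152337422-152344032, minus strand) encodes a pseudokinase that ATF4 and CHOP induce and that restrains them. Its levels were 8.67 and 10.4 CPM in WT and 14.2 and 13.1 CPM in KO-CAG organoids, without overlap. The fold of 1.43 missed the threshold (95% interval 1.07 to 1.91, edgeR adjusted p = 0.0591). In crypts Trib3 was near the limit of what the depth could show, with 9 to 65 counts per library. WT crypts had 2.24, 1.32, 0.720 and 1.69 CPM and KO-IEC crypts had 1.90, 2.44, 2.33 and 5.97 CPM. The groups overlapped through KO replicate 1 and WT replicate 1, and the log2 fold change was 1.09 (SE 0.45, edgeR adjusted p = 0.133). Without KO replicate 4, the highest library, it was 0.59 (edgeR adjusted p = 0.303). In the KO-IEC organoid experiment WT replicate 1 alone was high, at 71.1 CPM, where WT replicate 2 had 36.1 CPM and the KO libraries 40.5 and 41.5 CPM.

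Chac1 (ENSMUSG00000027313, chr2:119351229-119354381, plus strand) encodes a glutathione-degrading enzyme and is a sensitive ATF4 target. In KO-CAG organoids it was 5.56 and 6.54 CPM, against 3.73 and 3.11 CPM in WT. The libraries did not overlap, and the fold was 1.77 (95% interval 1.17 to 2.70, edgeR adjusted p = 0.0419). That call rested on 24 to 68 counts per library. It was absent with DESeq2 (adjusted p = 0.271) and whenever any of the 4 libraries was left out (edgeR adjusted p from 0.0534 to 0.202). In crypts Chac1 was 1.88, 1.41, 3.52 and 1.29 CPM in WT and 0.740, 1.30, 0 and 1.38 CPM in KO-IEC. The groups overlapped and the comparison was not called (edgeR adjusted p = 0.225), and the library without a count, KO replicate 3, allows up to 0.318 CPM. In the KO-IEC organoid experiment Chac1 was 37.3 and 16.8 CPM in WT and 33.3 and 15.3 CPM in KO, so that 1 library of each genotype was high.

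The 3 enzymes of amino acid synthesis among the genes make asparagine and serine. Asns (ENSMUSG00000029752, chr6:7675169-7693254, minus strand) encodes asparagine synthetase. It was 60.4, 63.9, 88.9 and 52.3 CPM in WT crypts and 51.1, 43.2, 35.6 and 38.7 CPM in KO-IEC crypts. Every KO library lay below every WT library, by a narrow gap between WT replicate 4 and KO replicate 1. The log2 fold change was -0.65 (95% interval -1.05 to -0.26), which missed the threshold (edgeR adjusted p = 0.0523) and gave the smallest p that 4 against 4 libraries allow (exact two-sided permutation p = 0.0286). DESeq2 called it (adjusted p = 0.0106). In KO-IEC organoids Asns was 252 and 134 CPM and in WT 291 and 220 CPM, and in KO-CAG organoids it was 121 and 146 CPM and in WT 137 and 141 CPM. Groups overlapped in both organoid experiments.

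Phgdh (ENSMUSG00000053398, chr3:98313170-98339990, minus strand) encodes phosphoglycerate dehydrogenase, the entry step of serine synthesis from glucose. In WT crypts it was 30.2, 33.1, 33.3 and 26.7 CPM and in KO-IEC crypts 25.7, 22.4, 10.6 and 20.04 CPM. These groups did not overlap either, with KO replicate 3 the lowest (log2 fold change -0.64, 95% interval -1.16 to -0.13, edgeR adjusted p = 0.0973, exact two-sided permutation p = 0.0286). Psat1 (ENSMUSG00000024640, chr19:15904678-15947337, minus strand) encodes phosphoserine aminotransferase, the next step. It was 21.9, 29.5, 31.1 and 26.4 CPM in WT crypts and 30.9, 18.9, 13.0 and 19.95 CPM in KO-IEC crypts. KO replicate 1 lay inside the WT range and the other KO libraries below it (log2 fold change -0.40, edgeR adjusted p = 0.268). All 3 enzymes had their lowest level in KO replicate 3.

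Other properties of the crypt libraries are given here beside the values of the 3 enzymes. Without KO replicate 1, the log2 fold changes of Asns, Phgdh, Psat1 and Atf3 were -0.76, -0.79, -0.65 and 2.56, and all 4 were called (edgeR adjusted p = 0.029, 0.0483, 0.0431 and 0.0489), in a fit that called 2468 of 13745 genes. The 4 stem cell markers (Lgr5, Ascl2, Olfm4, Smoc2) summed to 1388 to 2224 CPM in WT crypts and to 863 to 1395 CPM in KO-IEC crypts, with 2 of the 4 called lower. The 7 enterocyte markers summed to 1901 to 8201 CPM in WT crypts and to 6735 to 15410 CPM in KO-IEC crypts, with none called. Mitochondrial ribosomal RNA (mt-Rnr1 and mt-Rnr2) was taken as CPM of the library total, without TMM factors. It was 18.9 to 25.2 CPM in WT replicate 1 and KO replicates 1 to 3. WT replicate 4 and KO replicate 4 had 834 and 1078 CPM, and WT replicates 2 and 3 had 2840 and 2873 CPM. Inside the low class, of 1 WT and 3 KO libraries, Asns differed by -0.49, Phgdh by -0.72 and Psat1 by -0.15 on the log2 scale. Inside the middle class, of 1 library each, they differed by -0.43, -0.41 and -0.40 in the same order. With the class as a covariate the log2 fold changes were -0.46 for Asns, -0.54 for Phgdh and -0.20 for Psat1, and none was called (edgeR adjusted p = 0.246, 0.361 and 0.737). None of the 3 was called in the fit without the covariate either, and the fit with it called only 2 of 13427 genes. In these tissues fewer cells of a type and less RNA per cell cannot be told apart, and the part of cell content in the values was not tested.

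**Figure D2:**
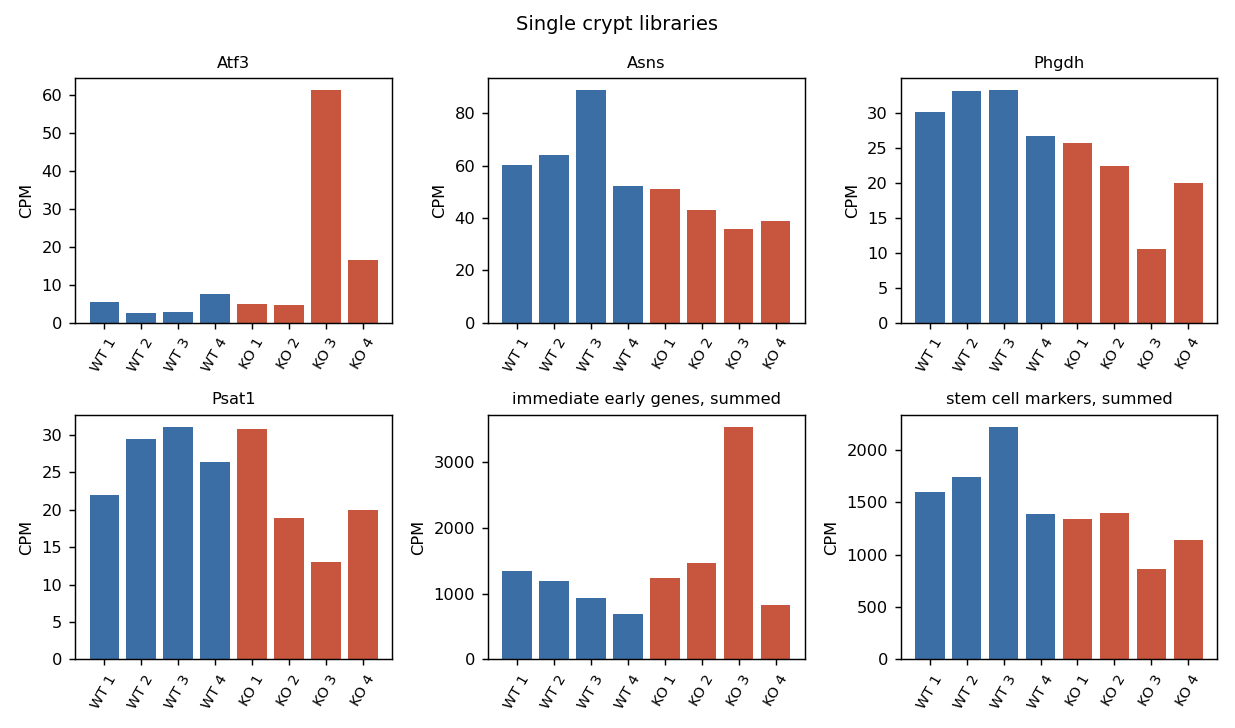
CPM in each of the 8 crypt libraries (WT blue, KO-IEC orange) of Atf3, Asns, Phgdh and Psat1, and the summed CPM of 16 immediate early genes and of 4 stem cell markers. KO replicate 3 is highest for Atf3 (61.3 CPM) and for the immediate early sum (3532 CPM) and lowest for the 3 enzymes and the stem cell sum (863 CPM).

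In the KO-IEC organoids 1 KO library stood apart for the enzymes. Psat1 was 297 and 220 CPM in WT and 326 and 104 CPM in KO, and Phgdh was 285 and 234 CPM in WT and 252 and 90.6 CPM in KO. KO replicate 1 lay within or above the WT range for Asns, Psat1 and Phgdh, and KO replicate 2 was the lowest of the 4 for each. With KO replicate 1 left out, the log2 fold changes were -0.94 for Asns, -1.31 for Psat1 and -1.52 for Phgdh, and all 3 were called (edgeR adjusted p = 0.0275, 0.0118 and 0.00597), in a fit that called 2322 of 14650 genes and assumes that the lone KO library varies like WT. With KO replicate 2 left out they were -0.02, 0.34 and -0.04, and none was called. The stem cell marker sum was 333 CPM in KO replicate 2 and 1422 CPM in KO replicate 1, against 2300 and 3446 CPM in WT. The enterocyte marker sum was 12008 CPM in KO replicate 2 and 3806 CPM in KO replicate 1, against 5454 and 9435 CPM in WT. The part of these differences in the enzyme values was not tested.

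In KO-CAG organoids no change of the 3 enzymes was called. Phgdh was 112 and 102 CPM in WT and 91.9 and 118 CPM in KO (log2 fold change -0.02, 95% interval -0.28 to 0.23). Psat1 was 101 and 115 CPM in WT and 108 and 122 CPM in KO (log2 fold change 0.10, 95% interval -0.12 to 0.32). For Asns the interval was -0.27 to 0.17. In this experiment the WT and KO libraries of these 3 genes overlapped.

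Sesn2 and Ddit4 encode inhibitors of mTORC1, the kinase complex that drives growth when amino acids are plentiful. Sesn2 (ENSMUSG00000028893, chr4:132492032-132510501, minus strand) encodes a leucine sensor that ATF4 and p53 can both induce. It gave the clearest change of the 10. Its level was 20.5 and 20.2 CPM in WT and 77.3 and 72.8 CPM in KO-CAG organoids. The libraries of a genotype agreed closely and the genotypes were far apart, at a fold of 3.68 (95% interval 3.13 to 4.33, log2 fold change 1.88, SE 0.105, edgeR adjusted p = 4.22e-06). Of all tested genes, 1.99% had a higher log2 fold change, and Sesn2 ranked 17 of 13598 by p-value. It was called under each of the 11 alternatives tried, at log2 fold changes of 1.82 to 1.92.

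Neither KO-IEC experiment showed such a rise of Sesn2. WT crypts had 13.3, 12.7, 10.47 and 11.5 CPM and KO-IEC crypts had 9.30, 14.2, 12.2 and 11.9 CPM. Both ranges covered the same levels (log2 fold change -0.01, 95% interval -0.37 to 0.34). WT organoids of the KO-IEC experiment had 46.4 and 44.1 CPM and KO had 51.9 and 44.9 CPM (log2 fold change 0.10, 95% interval -0.35 to 0.54). The difference between effects was tested as an interaction, with the 16 libraries fitted together across 15585 genes. The effect on Sesn2 was lower in crypts than in KO-CAG organoids by 1.88 on the log2 scale (interval of the difference -2.34 to -1.42, edgeR adjusted p = 0.00594), a contrast in which 0.372% of genes were called. It was lower in KO-IEC organoids than in KO-CAG organoids by 1.76 (interval of the difference -2.28 to -1.25, edgeR adjusted p = 0.0133), where 0.385% of genes were called. Of the 10 genes Sesn2 alone was called in either contrast, and none of the 10 was called between crypts and KO-IEC organoids, a contrast that called 0.00642% of genes. The difference in effect between KO-IEC and KO-CAG organoids was -0.14 for Atf4 (interval -0.63 to 0.36), no wider an interval than that of Sesn2. It was -1.67 for Atf3 (interval -4.57 to 1.24) and -0.996 for Ddit3 (interval -1.87 to -0.12, edgeR adjusted p = 0.393).

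**Figure D3:**
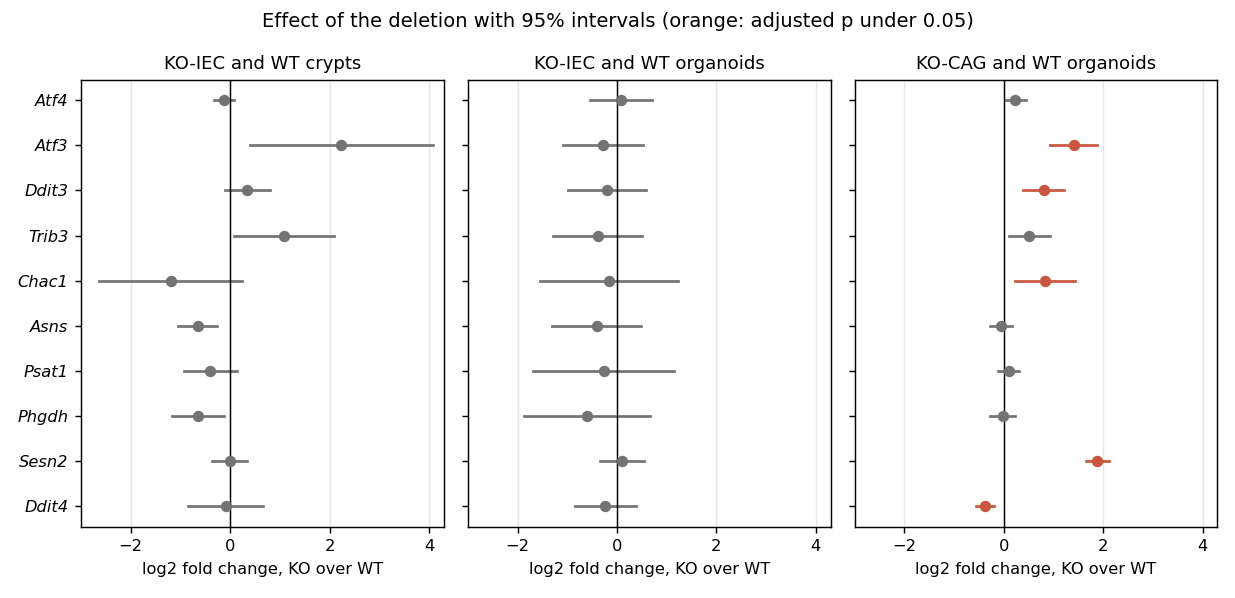
Fitted log2 fold change (KO over WT, x axis) of each of the 10 genes in the 3 experiments, with 95% intervals as lines and calls in orange. Only the KO-CAG panel holds calls, 4 to the right of 0 and Ddit4 to the left, and the interval of Sesn2 there (1.65 to 2.11) lies apart from its intervals in both KO-IEC panels.

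Targets of p53 rose in the same libraries as Sesn2. Of 11 listed p53 targets, 10 were called higher in KO-CAG organoids, beside 18.1% of all tested genes. The 11 summed to 501 and 557 CPM in WT and 1624 and 1441 CPM in KO. Phlda3, an inhibitor of AKT, went from 12.05 and 11.8 CPM to 78.7 and 63.4 CPM, Zmat3 from 28.6 and 23.8 CPM to 124 and 93.5 CPM, and Mdm2, the ligase for p53, was at a log2 fold change of 1.26. Sesn1, which encodes another sestrin, was the listed target not called (log2 fold change 0.13, edgeR adjusted p = 0.396). Sesn2 itself, at 20.2 to 77.3 CPM in these libraries, was small beside the sums above. In KO-IEC organoids the sums were 650 and 800 CPM in WT and 661 and 801 CPM in KO, with none of 11 called. In crypts they ran from 333 to 482 CPM in WT and from 449 to 606 CPM in KO, with 1 of 10 called, Mdm2 (log2 fold change 0.43). Markers of differentiated cells also moved in the KO-CAG organoids. Enterocyte markers summed to 3950 and 4353 CPM in WT and 11581 and 9217 CPM in KO with 6 of 7 called higher, enteroendocrine markers to 746 and 789 CPM in WT and 2020 and 1930 CPM in KO with 4 of 4 called higher, and 2 of 4 stem cell markers were called lower. The part of either in the Sesn2 result was not tested.

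**Figure D4:**
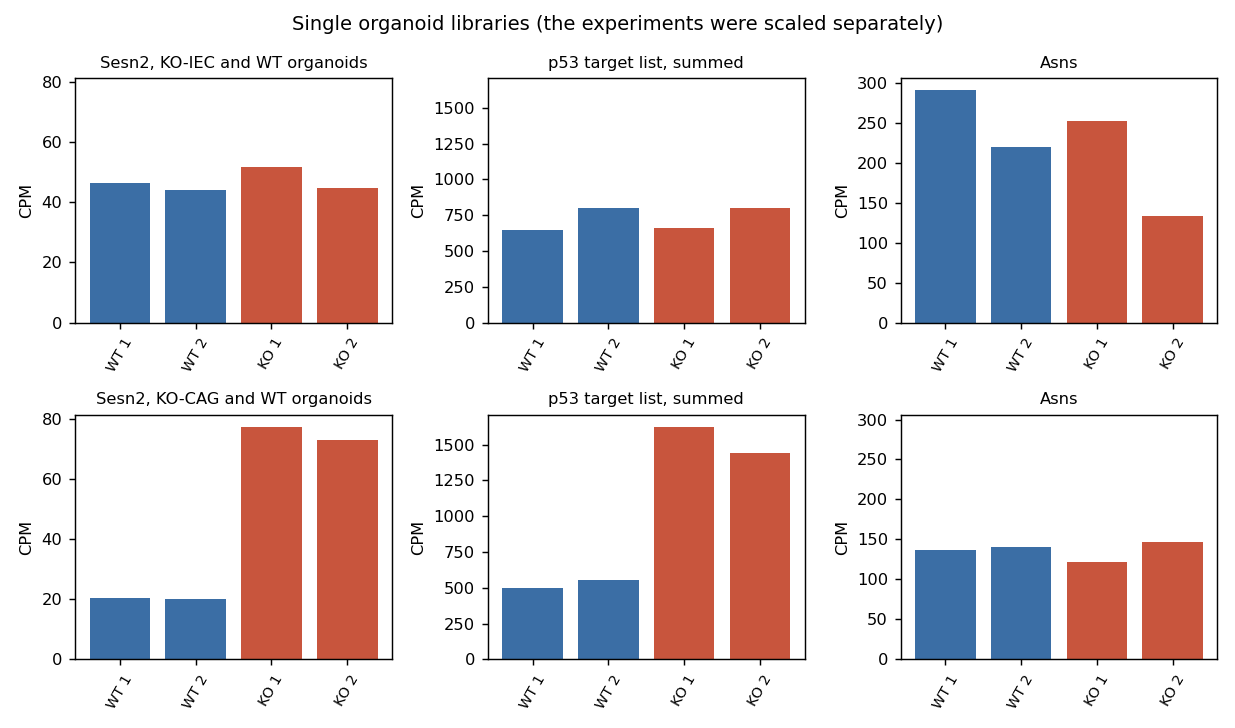
CPM of Sesn2, summed CPM of the 11 listed p53 targets and CPM of Asns in each organoid library (WT blue, KO orange), with the KO-IEC experiment in the upper row and the KO-CAG experiment in the lower row. Sesn2 (20.2 to 77.3 CPM) and the p53 sum (501 to 1624 CPM) are high in the same 2 KO-CAG libraries, and Asns is low in 1 KO-IEC library.

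Ddit4 (ENSMUSG00000020108, chr10:59949669-59951834, minus strand), also called REDD1, is induced by hypoxia and glucocorticoids as well as by ATF4. In KO-CAG organoids it was the called gene that went down, from 164 and 163 CPM to 127 and 126 CPM. The libraries within a genotype lay close together, and the level fell by 22.9% (log2 fold change -0.38, 95% interval -0.55 to -0.20, edgeR adjusted p = 0.00504). In crypts Ddit4 varied widely inside both groups, with 60.9, 88.0, 62.6 and 30.5 CPM in WT and 77.7, 62.8, 55.7 and 30.4 CPM in KO-IEC. The ranges were nearly the same, and replicate 4 was lowest in both. In the KO-IEC organoid experiment WT had 293 and 195 CPM and KO had 208 and 206 CPM, inside the WT values.

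The calls in the KO-CAG organoids differ in how firmly they stood. With a fold of at least 2 asked in addition, as the study's methods did, 2 of the 10 remained, Sesn2 and Atf3, against 8.6% of all tested genes. With all 16 libraries in 1 fit, which gives this experiment the larger spread of the others, 1 remained, Sesn2, and the genes called overall went from 4278 to 477. The KO-CAG libraries varied little within a genotype (biological coefficient of variation 0.0815, against 0.231 in crypts and 0.280 in KO-IEC organoids).

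The rest of the pathway was followed in lists of 77 genes by role, of which 69 could be tested in crypts, 74 in organoids of the KO-IEC experiment and 72 in those of the KO-CAG experiment. The calls among them numbered 6, 0 and 31. In crypts this was 8.70%, 3 higher and 3 lower, near the 6.96% of all tested genes. The share of the KO-CAG organoids was 43.1%, 17 higher and 14 lower, beside 31.5% of all tested genes. The median log2 fold change of the listed genes was -0.19, -0.14 and 0.13 in the same order. Over all tested genes, 4.3% were called higher and 2.66% lower in crypts, and 18.1% and 13.4% in KO-CAG organoids. The counts of each list below stand beside these shares.

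The signal begins with the eIF2 kinases. Eif2ak3, which encodes the ER stress kinase PERK, went from 29.8 and 29.8 CPM to 51.2 and 46.2 CPM in KO-CAG organoids (log2 fold change 0.70, edgeR adjusted p = 0.00105). Eif2ak4, which encodes the amino acid sensing kinase GCN2, fell from 34.6 and 36.9 CPM to 25.9 and 27.2 CPM (log2 fold change -0.43, edgeR adjusted p = 0.0192). Of the 17 kinases, eIF2 and eIF2B subunits and phosphatase subunits, 4 were called higher and 2 lower. That share, 35.3%, was near the 31.5% of all tested genes. The others higher were Eif2b4 (0.39), an eIF2B subunit, Ppp1r15b (0.31), the constitutive partner of the eIF2 phosphatase, and Dnajc3 (0.26), an inhibitor of the kinases, and the other lower gene was Eif2s3x (-0.32), the gamma subunit of eIF2, each on the log2 scale. Ppp1r15a, encoding GADD34 and induced by ATF4 and CHOP, was 9.16 and 8.94 CPM in WT and 13.9 and 10.8 CPM in KO and was not called (edgeR adjusted p = 0.129). In crypts 1 of the 17 was called. Ppp1r15b was 148, 151, 153 and 161 CPM in WT and 184, 221, 225 and 194 CPM in KO, without overlap (log2 fold change 0.43, edgeR adjusted p = 0.045). Neither Eif2ak3 nor Eif2ak4 was called there, at 0.07 and -0.06 on the log2 scale.

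Of 6 tested partners and regulators of ATF4, 3 were called in the KO-CAG organoids, beside 31.5% of all tested genes. Creb3l3 (1.51), encoding an ER-bound bZIP factor of liver and gut, Nupr1 (0.94), a stress-induced chromatin protein, and Ifrd1 (0.50) were called higher, in log2 fold change. Atf5 (-0.13) and Cebpb (-0.12), the close partners, were not called. In crypts none of 6 was called. Atf5 was 15.7, 16.4, 20.95 and 12.5 CPM in WT crypts and 8.56, 12.4, 10.9 and 8.09 CPM in KO-IEC crypts, and the groups were apart by a narrow margin (log2 fold change -0.71, edgeR adjusted p = 0.0578). In KO-IEC organoids Atf5 was higher in replicate 1 of both genotypes, 172 against 81.7 CPM in WT and 143 against 84.1 CPM in KO.

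Enzymes of serine, one-carbon and amino acid synthesis were the pathway group with the most lower calls. In crypts 3 of 14 were called, all lower, beside 2.66% of tested genes called lower. Psph, the last enzyme of serine synthesis, was 10.03, 8.96, 11.2 and 9.73 CPM in WT and 7.08, 6.18, 5.196 and 5.70 CPM in KO-IEC (log2 fold change -0.72, edgeR adjusted p = 0.0423). Pck2, the mitochondrial PEP carboxykinase, was at a log2 fold change of -0.59 (edgeR adjusted p = 0.0441), and its groups did not overlap either. Of the 14, 10 had fitted values below 0, with a median of -0.43. In KO-CAG organoids 7 of 15 were called lower and 1 higher, beside 13.4% and 18.1% of all tested genes. The lower genes with the largest changes were Aldh1l2 (-0.74), Pck2 (-0.62), Shmt1 (-0.57) and Cbs (-0.46), of folate, gluconeogenic, serine and cysteine metabolism, and the higher gene was Got1 (0.91), the cytosolic aspartate aminotransferase. In KO-IEC organoids 14 of 15 had fitted values below 0 (median -0.45), none was called, and KO replicate 2 gave the lowest sum of the list, 1335 CPM against 1816 to 2180 CPM.

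Amino acid transporters moved both ways in KO-CAG organoids, with 3 of 10 called higher and 2 lower. Of all tested genes, 18.1% were called higher there and 13.4% lower. Slc7a11, the cystine import subunit, went from 6.99 and 9.46 CPM to 28.9 and 21.1 CPM (log2 fold change 1.59, edgeR adjusted p = 4.57e-04), and Slc3a2, its heavy chain partner, from 111 and 116 CPM to 258 and 204 CPM (log2 fold change 1.02). Slc6a9, a glycine transporter, was at 1.07. Slc1a5 (-0.50) and Slc7a1 (-0.27), for glutamine and for cationic amino acids, were lower. In crypts Slc3a2 was the 1 call of 9, at 183, 148, 125 and 190 CPM in WT and 209, 257, 266 and 255 CPM in KO, without overlap (log2 fold change 0.61, edgeR adjusted p = 0.0475). Slc7a11 was too low for testing in crypts, at a mean of 0.874 CPM in WT and 0.358 CPM in KO. In KO-IEC organoids it was 34.4 and 18.5 CPM in WT and 36.3 and 3.04 CPM in KO.

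The aminoacyl-tRNA synthetases, which charge tRNAs and are classic ATF4 targets, held few calls. Of 13 genes, 1 was called in KO-CAG organoids, Aars, encoding the alanyl-tRNA synthetase, at 112 and 126 CPM in WT and 181 and 183 CPM in KO (log2 fold change 0.61, edgeR adjusted p = 6.00e-04). None was called in crypts, where 12 of 13 had fitted values below 0 and the median was -0.19, or in KO-IEC organoids, where 12 of 13 were below 0 and the median was -0.12. Of the 9 synthetase genes matched to a RefSeq promoter, 5 held the TGATGNAA letters, beside 4.51% of all genes. In the other pathway lists it was 1 of 14 genes of the eIF2 list and 2 of 8 bZIP partners and regulators. It was 3 of 13 amino acid synthesis genes, 2 of 7 transporters and 2 of 9 secreted and apoptotic targets.

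Secreted and apoptotic targets had the highest share of calls among the pathway lists in KO-CAG organoids, with 5 of 11 called higher and 3 lower. This share was 72.7%, beside 31.5% of all tested genes. Gdf15, a stress hormone that p53 also induces, went from 7.11 and 6.61 CPM to 36.3 and 27.2 CPM (log2 fold change 2.20, edgeR adjusted p = 4.10e-05). Bbc3 (1.15), the BH3-only protein PUMA, Sqstm1 (0.98), the autophagy receptor p62, and Tnfrsf10b (0.90), a death receptor, were higher too. Stc2, a secreted glycoprotein, went the other way, from 120 and 95.6 CPM to 34.9 and 39.3 CPM (log2 fold change -1.53), as did Vegfa (-0.73) and Vldlr (-0.62). In crypts 1 of 10 was called, Tnfrsf10b, at 9.40, 8.86, 8.31 and 9.49 CPM in WT and 14.2, 13.5, 11.7 and 12.8 CPM in KO (log2 fold change 0.53, edgeR adjusted p = 0.046). In KO-IEC organoids none of 11 was called, and Gdf15 was 18.2 and 25.5 CPM in WT and 13.6 and 15.3 CPM in KO. Fgf21, a hormone that ATF4 induces in liver, was at or under the floor in all 16 libraries, with at most 0.241 CPM.

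**Figure D5:**
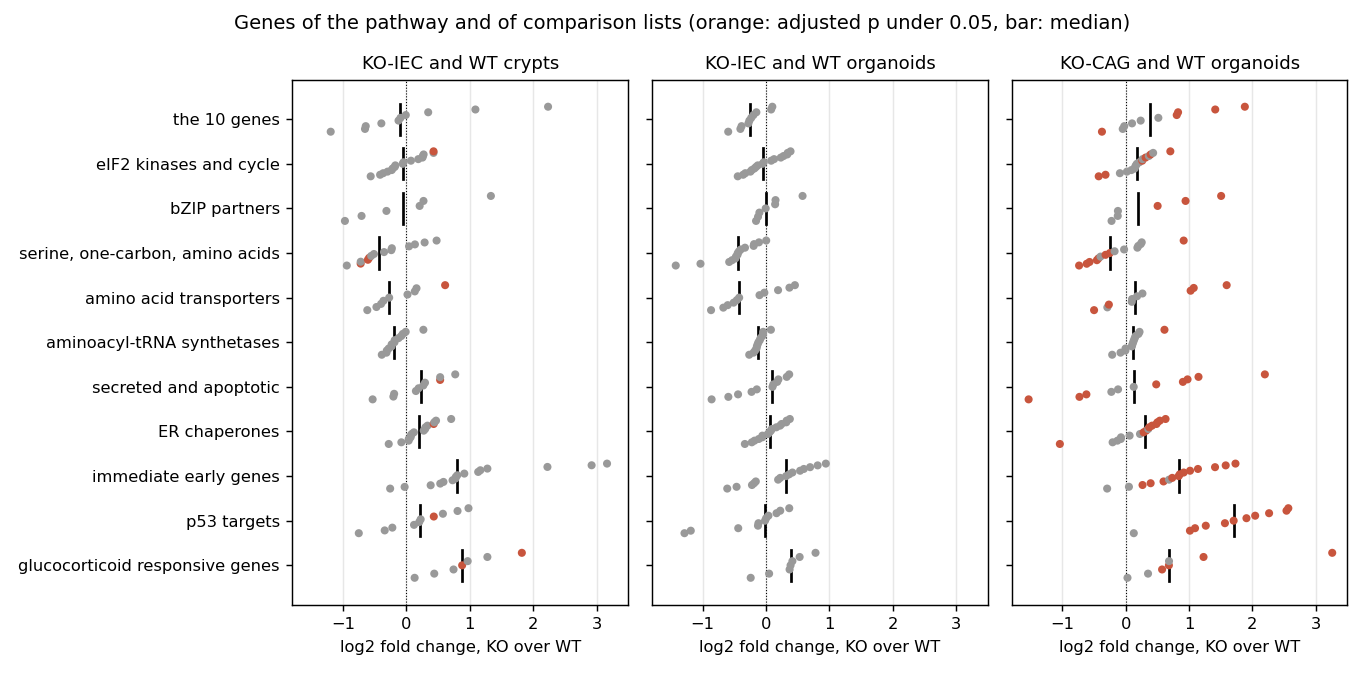
Fitted log2 fold change (x axis) of each tested gene by list in the 3 experiments, with calls in orange and bars at the list medians. In KO-CAG organoids the aminoacyl-tRNA synthetases cluster near 0 (median 0.12), the p53 targets lie to the right (median 1.70) and the amino acid synthesis enzymes spread to the left (median -0.25).

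The pathway calls in crypts were sensitive to single libraries. The 6 calls became 0 without any 1 of WT replicates 1, 2 or 3 or KO replicates 2 or 3, 1 without KO replicate 4, 11 without WT replicate 4 and 17 without KO replicate 1. They were also 0 with the mitochondrial ribosomal RNA class as a covariate and with the replicate block. In KO-IEC organoids the count became 25 without KO replicate 1 and 1 without KO replicate 2.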

How the data were processed

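RNA-seq counts of 16 libraries in 3 experiments were used. The authors deposited a table of whole-number read counts per gene for each experiment, made, per the submitters' processing notes, with HISAT2 2.0.5 and featureCounts 1.5.0-p3. Strand use was not given in the sources used here. Positions in the tables equalled GENCODE M21 (GRCm38) for 95.2% to 98.3% of genes, and 0 columns of per-sample values were left out. Counts were filtered with filterByExpr, scaled by TMM and tested in each experiment separately, without a block, with the quasi-likelihood test of edgeR 4.0.16 in R 4.3.3 (limma 3.58.1), with Benjamini-Hochberg adjustment and a threshold of 0.05. Differences between effects were interaction terms in a joint fit. Alternatives were DESeq2 1.42.0, other scalings and filters, a fold of at least 2, a replicate block, the class of mitochondrial ribosomal RNA (bounds of 100 and 2000 CPM without TMM factors), a joint fit and leaving out each library. The edgeR script was tested on simulated data. Exact permutation tests over libraries cannot go below 0.0286 with 4 against 4 and 0.333 with 2 against 2. Libraries of a group differed beyond counting noise (chi-square per degree of freedom 4.03 to 109). The members and all gene lists were chosen with earlier results of these data known. The text names all 10 members, Cul4b, mitochondrial ribosomal RNA, per pathway list up to 4 called genes in each direction in order of fold change, a few fixed regulators, and genes of other lists only beside a member's result. Other called genes are given by count, and 1 gene that this rule names is not reported here. Promoter sequences are from RefSeq on GRCm38.p6, and no other genome sequence was used.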

Additional observations from a re-analysis of the deposited data

Results flagged for a closer look

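Among the values of the 10 genes, the effect of Cul4b loss on Sesn2 differed between experiments in a test of the difference itself. In crypts the log2 fold change of Sesn2 was lower than in KO-CAG organoids, with a difference of -1.88 (SE 0.213, edgeR adjusted p = 0.00594). In KO-IEC organoids it was lower than in KO-CAG organoids as well, with a difference of -1.76 (SE 0.238, edgeR adjusted p = 0.0133). Sesn2 was higher in 2 of 2 KO-CAG libraries than in either WT library. The KO-CAG and KO-IEC experiments differed in the Cre line, in tamoxifen treatment and in their WT libraries. The crypts also differed from the organoids in being taken from tissue without culture. These differences cannot be told apart. In the 20 groups of 4 crypt libraries of the 10 genes, Dixon's test set 1 library apart on the CPM scale and none on the log2 scale, and chance alone passes it in about 1 of 20 groups. It was KO-IEC replicate 4 for Trib3, at 5.97 CPM, with a ratio of 0.867, above the 95% critical value (0.787, below it, on the log2 scale). KO-IEC replicate 3 for Atf3, at 61.3 CPM, came next with a ratio of 0.787 and did not pass, though the log2 fold change of Atf3 went from 2.23 to 0.93 without it.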

How the results depend on the processing

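Counts that moved by over 1.5 times, and directions that changed, were as follows. In crypts the 10 genes gave 0 calls, but 2 with no low-count filter, 1 with at least 10 counts in every library, 1 with DESeq2, and 0 to 4 on leaving out 1 library in turn. The 6 pathway calls in crypts became 2 with library size only, 15 with DESeq2, 0 with a covariate for mitochondrial ribosomal RNA class, 0 without the high class, 0 with a fold of at least 2 asked in addition, and 0 to 17 on leaving out 1 library. In KO-IEC organoids the 10 genes gave 0 to 3 calls on leaving out 1 library, and the pathway lists gave 3 with no low-count filter and 0 to 25 on leaving out 1 library. In KO-CAG organoids the 5 calls became 1 with all 16 libraries in 1 fit and 2 with a fold of at least 2, and the 31 pathway calls became 8 and 7. Over all genes, the 934 calls in crypts became 1479 with no low-count filter, 2355 with DESeq2, 1659 with all libraries in 1 fit, 2 with the class covariate, 1 without the high class and 2 to 2468 on leaving out 1 library. The single call in KO-IEC organoids became 223 with no low-count filter, 26 with DESeq2, 18 with all libraries in 1 fit and 0 to 2322 on leaving out 1 library. The 4278 in KO-CAG organoids became 2554 with DESeq2, 477 with all libraries in 1 fit and 2789 to 5177 on leaving out 1 library. With library size only, the share of higher calls in crypts went from 61.8% to 51.0% and the median of all tested genes was -0.09 on the log2 scale. Some log2 fold changes changed sign. Not all of them were near 0 in the main fit, which gave -0.39 for Trib3 and -0.26 for Psat1 in KO-IEC organoids. In crypts Sesn2 was 0.0010 with DESeq2 size factors, 0.0057 with DESeq2 and -0.11 to 0.089 on leaving out 1 library, and Ddit4 was 0.062 with the class covariate, 0.31 without the high class and -0.30 to 0.14 on leaving out 1 library. In KO-IEC organoids, leaving out 1 library gave -0.18 to 0.39 for Atf4, -0.52 to 0.19 for Ddit3, -0.81 to 0.18 for Trib3, -0.83 to 0.53 for Chac1, -1.31 to 0.34 for Psat1, -0.013 to 0.20 for Sesn2 and -0.51 to 0.091 for Ddit4. In KO-CAG organoids it gave -0.20 to 0.058 for Asns, -0.0061 to 0.19 for Psat1 and -0.22 to 0.12 for Phgdh. The fits that leave out libraries also compare fewer samples. The cause of the changes was not tested for any of the fits.

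With the replicate number as a block, the 10 genes gave 0 calls in crypts and in KO-IEC organoids, and 7 in those of KO-CAG mice, where Atf4 and Trib3 were added (edgeR adjusted p = 0.0486 and 0.0471), and the pathway lists gave 0, 0 and 33. All genes called under the block numbered 4, 1 and 4932. Deviations of same-numbered libraries from their group means correlated at -0.395 to 0.434 in crypts, 0.342 in the KO-IEC organoid experiment and 0.0669 in the KO-CAG experiment, and the labels tie no number to an animal or day, so the libraries share only a number. In all, 406 values kept their direction and their side of the threshold, or their count within 1.5 times, 27 counts moved further, 24 values changed sign, 15 passed the threshold only under the alternative and 9 lost it. Depth limits Trib3, Chac1 and Atf3 in crypts and Chac1 and Atf3 in KO-CAG organoids, where single libraries held under 70 counts.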

Other observations

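Neighbouring responses, listed beside the pathway and not part of it, gave the counts below. Of all tested genes, 18.1% were called higher and 13.4% lower in KO-CAG organoids, and 4.3% and 2.66% in crypts. In KO-IEC organoids 0.00717% of all tested genes were called. Chaperones and other targets of the ATF6 and IRE1 branches of ER stress were called higher for 8 of 16 genes and lower for 1 in KO-CAG organoids (median log2 fold change 0.30), for 1 of 16 in crypts and for 0 of 16 in KO-IEC organoids. Their summed level in KO-CAG organoids was 2586 and 2736 CPM in WT and 2647 and 2874 CPM in KO, and the ranges overlapped. Immediate early genes were called higher for 12 of 15 in KO-CAG organoids, with sums of 492 and 470 CPM in WT and 833 and 701 CPM in KO, and for 0 of 16 in crypts and 0 of 15 in KO-IEC organoids. Genes responsive to glucocorticoids, a class that includes Ddit4, were called higher for 4 of 7 in KO-CAG organoids, where Ddit4 itself was lower, for 2 of 7 in crypts and for 0 of 7 in KO-IEC organoids. Goblet cell markers were called higher for 4 of 4 and Paneth cell markers for 3 of 4 in KO-CAG organoids, and for none of either in the other experiments. These counts are given as values, and their relation to the 10 genes was not tested.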
